A study of Mus musculus with 4 samples.

Results

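The proteasome subunit genes were followed across 4 mouse tumours. They were taken as the rows of the deposited count table whose mouse symbol is Psm followed by a letter from a to g and a number, without the immunoproteasome genes Psmb8 and Psmb9. This rule used no expression value and gave 46 of the 46946 genes in the table. By role, 17 encode the core particle, 17 the regulatory particle, 7 assembly factors and 5 activators or an inhibitor. A total of 44 of the 46 had at least 1 CPM (counts scaled to library size) in every tumour and are called detected.

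The tumours were untreated, carried the K27M genotype and were labelled as derived from neural stem cells with PDGF (PDGFB in the sample titles), which makes 1 group of 4 tumours and no control group. The series text instead describes injected DIPG cells (diffuse intrinsic pontine glioma) that express mutant histone H3.3, and these descriptions were not reconciled here. The sources used here do not say how the mutation and PDGF were introduced, nor the strain and age of the mice, and an introduced sequence cannot be told apart from a mouse gene in these counts. The columns of the table are named T14, T10, T8 and TUN and could not be tied to single sample titles, so they are used as unnumbered tumours with 21664889 to 24369339 counts each.

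The proteasome degrades proteins that carry ubiquitin chains. Its core particle is a barrel of alpha and beta rings with the proteolytic sites inside, and its regulatory particle binds ubiquitin, unfolds the substrate with a ring of ATPases and threads it into the barrel. Dedicated chaperones build both particles, and their genes are widely expressed, with dividing and protein-producing cells known for a high demand on the complex.

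The starts of these genes are shown first because the regulatory and core classes held different shares of short motifs. Windows from RefSeq (GRCm38.p6) covering 250 bases before and 50 bases after the gene start were matched to 38 of the 46 genes. Psmb1, Psmb2, Psmb7, Psmc3, Psmd3, Psmd7, Psmg2 and Psma8 had no window in this table. For Psma4, Psma7 and Psmc5 the end of the window was not found in a GENCODE transcript of the gene. The printed stretches are the 250 bases before the start, 5′ to 3′ on the strand of the gene. The first set holds CCGGAAG, the letters bound by many Ets-family factors, or its reverse complement, in capitals. It comes from the regulatory genes Psmd2 (chr16:20651402-20651651, plus strand) and Psmc6 (chr14:45329574-45329823, plus strand) and from the assembly gene Psmg1 (chr16:95990961-95991210, minus strand).
Psmd2: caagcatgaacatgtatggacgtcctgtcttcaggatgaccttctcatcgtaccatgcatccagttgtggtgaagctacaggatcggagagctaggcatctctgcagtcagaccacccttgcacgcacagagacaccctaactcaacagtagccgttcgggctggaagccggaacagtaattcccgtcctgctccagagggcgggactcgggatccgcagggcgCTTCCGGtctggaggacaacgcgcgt
Psmc6: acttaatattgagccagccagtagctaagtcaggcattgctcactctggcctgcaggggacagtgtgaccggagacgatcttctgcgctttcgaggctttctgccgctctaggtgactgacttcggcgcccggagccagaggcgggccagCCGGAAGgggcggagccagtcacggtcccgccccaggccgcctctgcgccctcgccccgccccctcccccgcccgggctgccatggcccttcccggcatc
Psmg1: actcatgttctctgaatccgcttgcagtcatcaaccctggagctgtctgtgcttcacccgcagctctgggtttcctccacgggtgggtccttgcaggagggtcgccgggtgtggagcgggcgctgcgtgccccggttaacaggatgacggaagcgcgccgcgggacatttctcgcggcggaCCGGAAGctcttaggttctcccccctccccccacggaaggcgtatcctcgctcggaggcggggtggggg

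The other set holds TGANNNNGC, the core of the antioxidant response element that NFE2L1 and NFE2L2 are known to bind, or its reverse complement, in capitals. Shown are the core genes Psmb5 (chr14:54617996-54618245, minus strand) and Psmb6 (chr11:70525107-70525356, plus strand), which encode 2 of the catalytic beta subunits. Psmc6 and Psmg1 above also hold this motif, which is left in lower case there.
Psmb5: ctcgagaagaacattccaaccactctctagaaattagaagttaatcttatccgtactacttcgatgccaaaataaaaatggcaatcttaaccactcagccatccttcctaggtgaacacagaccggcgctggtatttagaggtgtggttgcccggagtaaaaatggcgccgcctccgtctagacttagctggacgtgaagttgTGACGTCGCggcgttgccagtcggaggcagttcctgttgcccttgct
Psmb6: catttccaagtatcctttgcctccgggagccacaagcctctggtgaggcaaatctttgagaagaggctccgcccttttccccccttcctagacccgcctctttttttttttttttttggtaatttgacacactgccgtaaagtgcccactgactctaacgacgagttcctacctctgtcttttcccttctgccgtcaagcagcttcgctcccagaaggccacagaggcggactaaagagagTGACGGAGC

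In the whole windows, CCGGAAG on either strand was held by 14 of 38 proteasome genes (36.8%), against 18.9% of the genes that passed the filter on low counts and 9.93% of all genes with a window. Regulatory genes held it in 9 of 14 cases (64.3%), core genes in 1 of 13 (7.69%), assembly genes in 2 of 6 and the activator and inhibitor genes in 2 of 5. TGANNNNGC was held by 21 of 38 proteasome genes (55.3%), against 48.0% of the genes that passed the filter and 45.0% of all genes. It was in 9 of 13 core genes (69.2%), 6 of 14 regulatory genes (42.9%) and 4 of 6 assembly genes. The stricter TGACTCAGC, each match of which is also a match of TGANNNNGC, was in 0 of 41 proteasome windows and in 0.454% of all windows. CCAAT was in 31.7% of the proteasome windows, 37.1% of the windows of genes that passed the filter and 37.4% of all windows. CACGTG was in 9.76%, 9.59% and 7.15% of these sets and TATAAA in 7.32%, 7.13% and 13.6%, so for both motifs the proteasome share lay near that of the genes that passed the filter. A match describes letters in these windows and not a bound site, and no test was made.

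**Figure D1:**
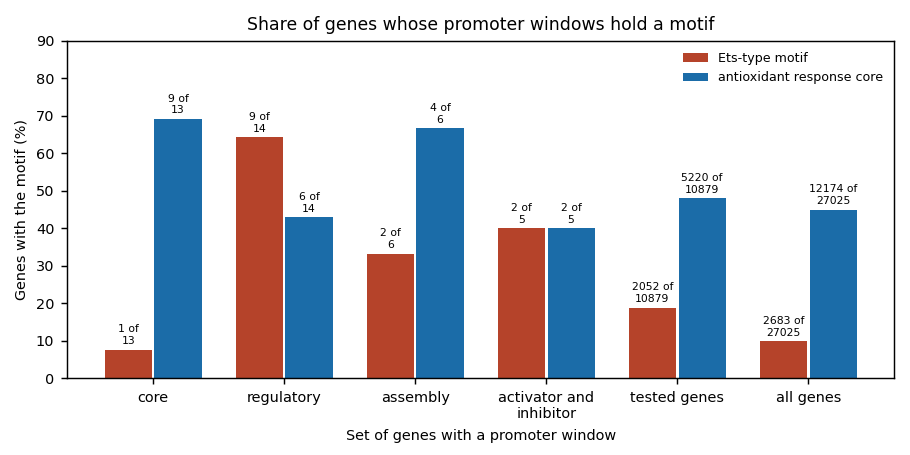
Share of genes (%) whose promoter windows held the Ets-type motif CCGGAAG or the antioxidant response core TGANNNNGC on either strand, for 4 classes of proteasome gene, the genes that passed the filter and all genes, with counts above the bars. The Ets-type motif was in 9 of 14 regulatory but 1 of 13 core genes, against 18.9% of the genes that passed the filter. The antioxidant response core was in 9 of 13 core and 4 of 6 assembly genes, against 48.0%.

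Core genes were compared per length as RPKM, which is CPM divided by the merged exon length in kilobases. Merged exons can be much longer than the transcript that is made, so the ends of each class are also given per length of 1 principal transcript. These transcripts come from GENCODE vM21 and the counted exons from vM8. For Psma2 (2911 against 944 bases), Psmb1 (1758 against 1036) and Psmc6 (2234 against 1564) the transcript is much the longer. Such transcripts hold bases that were not counted, so their values per transcript length can be too low. The 15 detected core genes had a median of 40.9, 35.3, 51.4 and 61.2 RPKM in T14, T10, T8 and TUN. By comparison, the median of the 4-tumour means was 7.51 RPKM over the 14266 genes that passed the filter. Psmb1 (chr17:15475721-15498276, mm10), a noncatalytic beta ring subunit, was the highest at 157, 144, 208 and 228 RPKM in T14, T10, T8 and TUN, a mean of 184 ± 40.2 (SD, n = 4). Psma3 (chr12:70974621-70996347), an alpha ring subunit, was the lowest at 8.71, 7.49, 8.78 and 10.8 RPKM in the same order, a mean of 8.94 ± 1.37. Each of these genes was highest in TUN and lowest in T10, with levels 20.6-fold apart. Per transcript length Psma3 was still the lowest, with a mean of 12.2, but Psmb6 was the highest at 171 and Psmb1 stood at 109, so the top of the class and its span (then 14.01-fold) depend on the length used. The class medians of the 7 detected alpha genes and the 8 detected beta genes differed by -0.11 ± 0.16 log2 units (SD, n = 4), below 0 in 3 tumours and above 0 in TUN, and by -0.73 ± 0.10 per transcript length, below 0 in 4 of 4 tumours. The last difference includes Psma2 and Psmb1, whose transcript lengths exceed their counted exons.

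Psma8 and Psmb11, the remaining core genes, were not detected. Psma8, the testis form of the alpha subunit Psma7, had 9 counts in T14 and 11 in each other tumour, or 0.399, 0.448, 0.461 and 0.491 CPM. Psmb11, the thymus form of the beta subunit Psmb5, had 2, 3, 0 and 2 counts in T14, T10, T8 and TUN, and 0 counts in T8 allows up to 3 counts (0.126 CPM). These tissue-specific forms were thus at or near the limit of detection in all 4 tumours.

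All 17 regulatory genes were detected, with a median of 46.3, 44.5, 55.4 and 65.3 RPKM in T14, T10, T8 and TUN. Psmd8 (chr7:29174188-29180701), a subunit of the lid that holds the ubiquitin-removing enzyme, was the highest at 108, 90.1, 134 and 135 RPKM, a mean of 117 ± 21.8 (SD, n = 4). Psmd11 (chr11:80428615-80473248), another lid subunit, was the lowest at 14.7, 13.2, 16.7 and 18.8 RPKM, a mean of 15.8 ± 2.42. Both were lowest in T10. Per transcript length Psmd8 remained the highest at 119, whereas Psmd11 stood at 62.1 and Psmc6 was the lowest at 55.2. The transcript of Psmc6 is longer than its counted exons, so its place per transcript length is uncertain. The class median of the 6 ATPase genes Psmc1 to Psmc6 lay 0.90 ± 0.07 log2 units above that of the 11 non-ATPase genes with merged exons but 0.039 ± 0.077 per transcript length, above 0 in 3 of 4 tumours, so no order between them is given. Within the ATPase ring, 4-tumour means ran from 27.1 RPKM for Psmc2 to 108 RPKM for Psmc5, and per transcript length from 55.2 for Psmc6 to 115 for Psmc3, with Psmc2 at 76.3.

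The 7 assembly genes were all detected and lower, with a median of 13.5, 12.3, 16.4 and 15.4 RPKM in T14, T10, T8 and TUN. They comprise Psmg1 to Psmg4, chaperones of the alpha ring, and Psmd5, Psmd9 and Psmd10, chaperones of the ATPase ring. Psmg2 was the highest at 23.2, 24.1, 32.7 and 33.0 RPKM in the same order, and Psmg3 (chr5:139823592-139826885), which works with Psmg4, was the lowest at 3.18, 2.98, 4.56 and 4.21 RPKM. For both, T8 and TUN were above T14 and T10, and per transcript length they were again the ends of the class, at 28.2 and 14.7. The symbol rule leaves some related genes out of the classes. Pomp, which assists the maturation of the core particle, had a mean of 22.7 RPKM, and Adrm1 of the regulatory particle 3.56 RPKM.

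The 5 genes for activators and the inhibitor had a median of 9.47, 9.86, 9.71 and 13.0 RPKM. Psme3 (chr11:101316213-101323537), which encodes the nuclear activator PA28 gamma, was the highest at 41.2, 40.3, 57.0 and 49.95 RPKM. Psmf1 (chr2:151715812-151744186), which encodes the inhibitor PI31, was the lowest at 6.66, 7.32, 7.22 and 6.26 RPKM. Per transcript length Psme3 was again the highest at 52.2, but Psmf1 stood at 32.0 and Psme2 was the lowest at 12.7. Psme3 was highest in T8, whereas Psmf1 was highest in T10 and lowest in TUN.

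Core genes exceeded assembly genes in 4 of 4 tumours, by 1.60, 1.51, 1.64 and 1.99 log2 units in T14, T10, T8 and TUN, a mean difference of class medians of 1.68 ± 0.21 (SD, n = 4) or 3.21-fold. Regulatory genes exceeded them by 1.77, 1.85, 1.75 and 2.08, a mean of 1.86 ± 0.15 or 3.64-fold, on the log2(RPKM + 0.1) scale. Core and regulatory genes lay close, with core minus regulatory at -0.18 ± 0.11, and this difference became 0.069 with the length of 1 principal transcript 0.31 without genes that have near-identical copies and 0.033 without the genes of distal chromosome 14, so no order between them is given. The 2 differences from the assembly genes stayed above 1 log2 unit under each alternative tried, down to 1.27 for core minus assembly over all members with a count. Genes of a class are not replicates, and no test was made between classes.

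**Figure D2:**
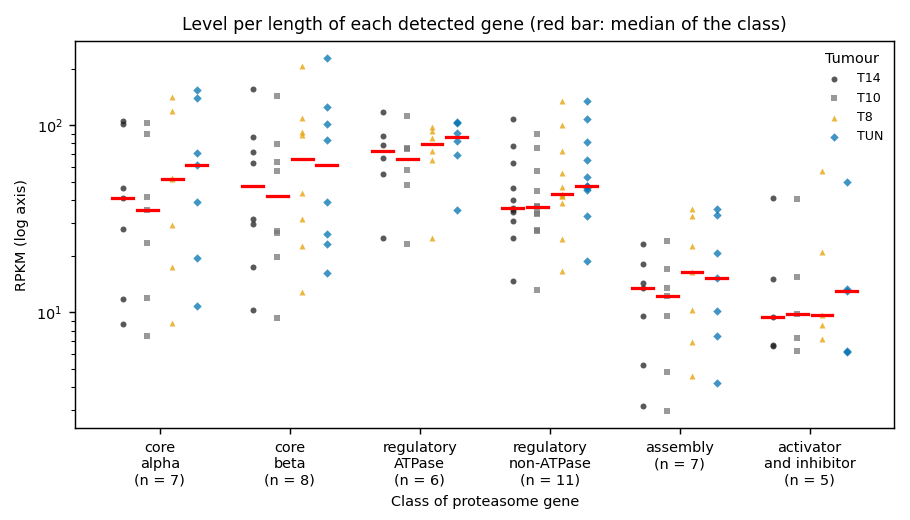
Level of each detected proteasome gene (RPKM, log axis) in the 4 tumours by class, 1 point per gene and tumour, with the median of the class as a red bar. The assembly medians of 12.3 to 16.4 RPKM lie below the core medians of 35.3 to 61.2 RPKM in every tumour.

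Across tumours, most proteasome genes were higher in T8 and TUN than in T14 and T10. The summed level of the 46 genes was 4107, 3831, 4852 and 5411 CPM in T14, T10, T8 and TUN (4550 ± 718, SD, n = 4), a 1.41-fold span, or 0.399%, 0.386%, 0.479% and 0.559% of all counts. T8 and TUN were the 2 highest tumours for 34 of the 44 detected genes, against 32.5% of the 14266 genes that passed the filter, and T14 and T10 were for 1 (Psmc5), against 33.0%. Bulk counts cannot tell fewer cells of a type from less RNA per cell. TUN was the highest tumour for 31 of the 44 genes (against 25.2% of genes tested), T8 for 11 (24.9%), T14 for 1 (29.3%) and T10 for 1 (20.7%). The lowest tumour was T10 for 29 genes (25%), T14 for 8 (25%), TUN for 5 (24.4%) and T8 for 2 (25.6%).

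None of the proteasome genes passed a test for more variation between tumours than genes of like abundance. In edgeR's goodness of fit with Benjamini-Hochberg adjustment 0 of the 44 genes passed, against 4.34% of the genes tested, and 0 had an unadjusted p under 0.05, against 8.38%. DESeq2's dispersion outliers also held 0 of the 44, against 0.652% of the genes tested, a share too small for this 0 to set the 44 apart. The lowest p among them was 0.420, for Psmg4 (adjusted p = 0.999996). The smallest span between the highest and lowest tumour among all genes that passed was 3.68-fold, and no proteasome gene spanned more than 2.10-fold, so this fit does not show that the genes were equal. The ordering of the tumours is therefore a description of these 4 libraries.

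By class, T8 and TUN were the 2 highest tumours for 14 of 15 core genes and 7 of 7 assembly genes. They were so for 12 of 17 regulatory genes and 1 of 5 activator and inhibitor genes, against 32.5% of the genes tested. Within the regulatory class this held for 10 of 11 non-ATPase genes and 2 of 6 ATPase genes. It held for 0 of the 4 detected genes on chromosome 14 beyond 40 Mb, described below, and for 34 of the other 40. The class counts include these 4, which are Psmb5 (core), Psmc6 (ATPase) and the activator genes Psme1 and Psme2. Core genes summed to 1275, 1160, 1595 and 1804 CPM (1.56-fold), regulatory genes to 2353, 2193, 2652 and 3023 (1.38-fold), assembly genes to 190, 184, 248 and 246 (1.34-fold), and the activator and inhibitor genes to 289, 294, 358 and 339 (1.24-fold). As deviations of log2 CPM from the 4-tumour mean of each gene, the median over the 44 genes was -0.15, -0.25, 0.13 and 0.28 in T14, T10, T8 and TUN, against values from -0.01 to 0.01 over all genes tested. Leaving out 1 tumour centres the deviations on the tumours kept, so the medians shift by construction. The T14 median was then -0.057 without TUN, and the T8 median 0.0501 without T10, 0.07 without T14 and 0.22 without TUN. These shifts do not show how far the sizes rest on single tumours. The core median ran from -0.31 in T10 to 0.33 in TUN, the regulatory median from -0.23 to 0.27 and the assembly median from -0.30 to 0.24 in the same tumours.

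**Figure D3:**
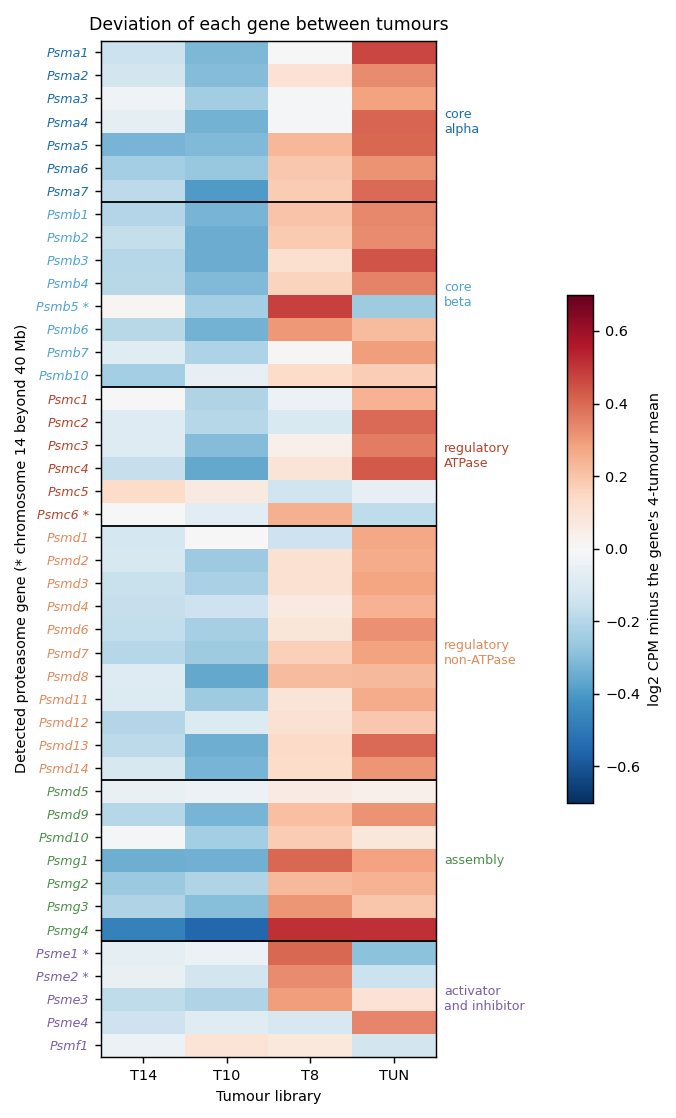
Deviation of log2 CPM from the 4-tumour mean for the 44 detected proteasome genes (rows, by class) in the 4 tumours (columns), blue below and red above the mean. Most rows are blue in T14 and T10 and red in T8 and TUN, and the 4 starred genes on chromosome 14 are red in T8 and blue in TUN.

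Markers of division and most of those of oligodendrocyte precursors ran with this order, while those of neurons, astrocytes and oligodendrocytes ran opposite to it. The 12 mitosis genes summed to 875, 866, 1600 and 2105 CPM in T14, T10, T8 and TUN, with T8 and TUN the 2 highest for 12 of 12. The 15 neuron markers summed to 5551, 4819, 1288 and 1187 CPM (T14 and T10 the 2 highest for 14 of 15), the 10 astrocyte markers to 7220, 4627, 2223 and 2124 (9 of 10) and the 9 oligodendrocyte markers to 4085, 5416, 1326 and 1302 (7 of 9). The 8 oligodendrocyte precursor markers, among them Pdgfra and Olig2, were present in every tumour at 9250, 10731, 15007 and 12115 CPM. T8 and TUN were the 2 highest for 7 of these 8, and T10 and T8 were so for Pdgfra. The 10 microglia and macrophage markers summed to 829, 611, 943 and 1684 CPM, of which Lyz2 gave 195, 113, 337 and 951. Lyz2 was the only one that passed the goodness of fit, and the other 9 summed to 634, 498, 605 and 733 CPM. T8 and TUN were the 2 highest for 5 of the 10 (C1qb, C1qc, Aif1, Lyz2 and Cd68). T14 and T10 were so for 3 (P2ry12, Tmem119 and Csf1r). The 8 endothelial markers did not follow the order, at 295, 263, 309 and 279 CPM. In the other lists 13 of 15 neuron, 6 of 10 astrocyte and 6 of 9 oligodendrocyte markers passed the goodness of fit, against 4.34% of genes tested. It was passed by 0 of 12 mitosis genes, 0 of 8 oligodendrocyte precursor markers and 0 of 8 endothelial markers. No marker was at 0 counts in any tumour, and the part of these cells in the proteasome pattern was not tested.

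Single proteasome genes rarely spanned more than 2-fold. The ratio of the highest to the lowest tumour in CPM had a median of 1.49 over the 44 genes and 1.57 over all genes tested, and it was above 2 for 1 of 44 (Psmg4) against 29.1%. The median level was 110 CPM for the 44 genes and 32.3 CPM for all genes tested. These ratios were not set against genes of like abundance. Psmg4 (chr13:34162964-34178172), a chaperone of the alpha ring, had 10.03, 9.49, 19.9 and 19.9 CPM in T14, T10, T8 and TUN, a 2.10-fold span. T8 and TUN were thus level with each other and both above the other tumours. Psma7 (chr2:180036373-180042433), an alpha ring subunit, followed at 126, 109, 162 and 188 CPM (1.73-fold), and the beta ring subunit Psmb3 (chr11:97703399-97713500) at 23.8, 21.5, 29.6 and 37.2 CPM (1.73-fold). Both had the order T10, T14, T8, TUN from low to high.

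The steadiest gene was Psmd5 (chr2:34849734-34874968), an ATPase ring chaperone, at 69.1, 69.6, 74.7 and 73.7 CPM in T14, T10, T8 and TUN, a 1.08-fold span. Psmf1 had 42.9, 47.1, 46.5 and 40.3 CPM (1.17-fold), with TUN the lowest. Psmc5 (chr11:106256154-106263120), an ATPase subunit, had 164, 157, 136 and 144 CPM (1.205-fold) and was the gene for which T14 and T10 were the 2 highest. The ATPases each contribute a subunit to the same ring, and the tumour order of Psmc5 was unlike that of Psmc4, which had 119, 104, 142 and 180 CPM.

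Genes on chromosome 14 departed from the order in TUN. Beyond 40 Mb on this chromosome lay 4 detected proteasome genes, a position chosen with the values known, and the undetected Psmb11. The catalytic subunit gene Psmb5 (chr14:54614120-54617995) had 27.5, 23.0, 37.9 and 22.9 CPM in T14, T10, T8 and TUN. The ATPase gene Psmc6 (chr14:45329824-45349071) had 123, 117, 146 and 108 CPM in the same order. Psme1 (chr14:55578123-55581529) and Psme2 (chr14:55587441-55591113), whose products form the activator PA28 together, had 33.4, 34.0, 46.3 and 28.8 CPM and 11.7, 11.03, 15.2 and 10.9 CPM. Each of the 4 was highest in T8, and each was lowest in TUN with the TMM scaling, although only 2 of the 4 were lowest in TUN with DESeq2's size factors or with library totals alone.

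The lower level in TUN than in T8 did not depend on the scaling and was seen for 4 of 4 genes with all 3 scalings. The log2 difference of TUN minus T8 was -0.73 for Psmb5, -0.69 for Psme1, -0.48 for Psme2 and -0.43 for Psmc6, a median of -0.58. The other 40 detected genes had a median of 0.17, with 8 of 40 below 0. Psmd6 (chr14:14112184-14120984), a lid subunit gene on the same chromosome but before 40 Mb and named after its values were seen, had 108, 103, 129 and 152 CPM and a difference of 0.24. Other genes of the region had the same direction. Of the 336 tested genes on chromosome 14 beyond 40 Mb, 87.2% were lower in TUN than in T8 (median -0.59), against 52.1% of the 146 genes up to 40 Mb (median -0.02) and 48.4% of the 13784 genes on other chromosomes (median 0.01). Psmb5 has 2 near-identical copies elsewhere, and with their counts added it stood at 37.1, 30.3, 40.5 and 25.9 CPM, still lowest in TUN. No DNA copy number was analysed here, and a cause was not tested.

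**Figure D4:**
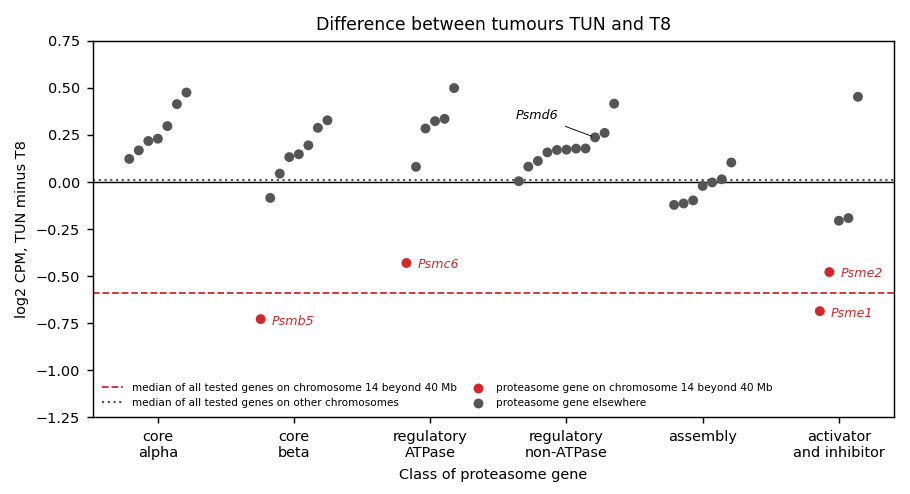
Difference in log2 CPM between tumours TUN and T8 for each of the 44 detected proteasome genes, by class, with the 4 genes on chromosome 14 beyond 40 Mb in red and the medians of all tested genes as lines. The red genes lie between -0.73 and -0.43, next to the median of -0.59 for all tested genes of that region, while most other proteasome genes lie above 0.

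Subunits that can take the same place in the complex, or that work as partners, were compared as ratios within each tumour, on the log2(RPKM + 0.1) scale. With 4 tumours the smallest p of a two-sided exact sign-flip permutation test is 1 in 8, so none of the 8 pairs can be called. Each pair had this smallest p, before and after adjustment over the 8. Psmb5, the chymotrypsin-like subunit, exceeded its immunoproteasome counterpart Psmb8 by 4.33, 3.72, 4.21 and 3.005 in T14, T10, T8 and TUN, a mean of 3.82 ± 0.60 (SD, n = 4). With the length of 1 principal transcript the mean was 3.05 ± 0.61, so the shares that follow hold for merged exons. Psmb8 made up 4.46%, 6.76%, 4.92% and 10.8% of the summed RPKM of the pair. The share was thus highest in TUN, where Psmb5 was low and Psmb8 stood at its highest, with 4.04, 5.25, 6.16 and 8.71 CPM over the tumours.

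Psmb6, the caspase-like subunit, had 62.8, 57.1, 88.7 and 83.6 RPKM and exceeded its counterpart Psmb9 by 6.70 ± 0.48 log2 units, in 4 of 4 tumours. Psmb9 stood at 1.86, 2.85, 1.97 and 2.10 CPM. The trypsin-like subunit Psmb7, at 29.7, 27.1, 31.7 and 38.7 RPKM, lay closer to its counterpart Psmb10, at 17.4, 19.8, 22.5 and 23.2 RPKM. Their log2 ratio was 0.61 ± 0.16 and above 0 in 4 of 4 tumours. With the length of 1 principal transcript it was 2.21 ± 0.16, since the merged exons of Psmb7 span 3421 bases and its principal transcript 1160. All 3 standard catalytic genes thus exceeded their immunoproteasome counterparts in every tumour, with the sizes for Psmb5 and Psmb7 depending on the length used.

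Psma7 exceeded the testis form Psma8 by 6.99 ± 0.30 log2 units in 4 of 4 tumours. Psma8 had only 9 to 11 counts, so this size is uncertain. It was 5.23 with a pseudocount of 1 and 8.74 with the length of 1 principal transcript. Psme1, at 15.1, 15.4, 20.96 and 13.0 RPKM, exceeded Psme2, at 6.62, 6.25, 8.62 and 6.18 RPKM, by 1.201 ± 0.10. Both genes of this neighbouring pair were highest in T8 and, with the TMM scaling, lowest in TUN. Psme3 exceeded Psme4, which encodes the activator PA200 and had 9.47, 9.86, 9.71 and 13.3 RPKM, by 2.11, 2.02, 2.54 and 1.90 in T14, T10, T8 and TUN (2.14 ± 0.28). Psmd14, the ubiquitin-removing enzyme of the lid, had 39.7, 34.2, 46.9 and 53.1 RPKM, and its inactive partner Psmd7 had 77.9, 75.3, 101 and 109. The ratio was -1.06 ± 0.07 (below 0 in each tumour), and -0.21 with the length of 1 principal transcript. No ratio is given for Psmb5 and Psmb11, since Psmb11 had at most 3 counts.

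**Figure D5:**
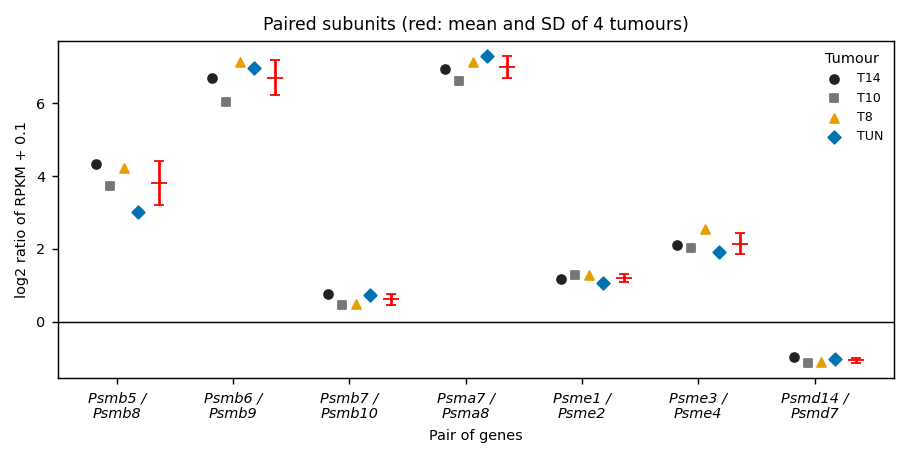
Log2 ratio of RPKM + 0.1 for 7 pairs of subunit genes, 1 point per tumour, with the mean and SD of the 4 tumours in red. Ratios of the standard catalytic genes to their immunoproteasome counterparts were above 0 in every tumour, from 0.61 ± 0.16 for Psmb7 and Psmb10 to 6.70 ± 0.48 for Psmb6 and Psmb9.

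Among other genes of the pathway, 0 of 11 factors associated with the complex, 0 of 14 ubiquitin and shuttle genes, 0 of 4 regulators of proteasome gene transcription and 0 of 2 immunoproteasome genes passed the goodness of fit, against 4.34% of genes tested. T8 and TUN were the 2 highest tumours for 10 of 14 ubiquitin and shuttle genes and 5 of 11 associated factors. They were so for 1 of 4 regulators and 1 of 2 immunoproteasome genes, against 32.5% of the genes tested. T14 and T10 were the 2 highest for 0, 3, 2 and 0 of these genes in the same order, against 33.0%. Pomp, which assists the maturation of the core particle, had 112, 100.5, 135 and 126 CPM in T14, T10, T8 and TUN. Adrm1, a ubiquitin receptor of the regulatory particle, had 14.4, 13.4, 16.3 and 19.3 CPM. Both were lowest in T10, as most subunit genes were. Nfe2l1, a transcription factor known to drive proteasome genes when the complex is impaired, ran the other way at 282, 323, 225 and 193 CPM, and its relative Nfe2l2 had 47.5, 36.5, 52.2 and 51.1 CPM.

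Some levels are uncertain because reads can be shared. Near-identical copies, at 90% identity or more over at least 50% of the principal transcript, exist for 11 genes, which are Psma4, Psma5, Psmb3, Psmb5, Psmb6, Psmc1, Psmd2, Psmd11, Psmd14, Psme1 and Psme2. The sources used here do not say how reads with several matches were handled. With these 11 left out, T8 and TUN were the 2 highest tumours for 27 of the remaining 33 detected genes. The library kit did not mark strand, and the annotation places other genes over exons of 11 members, over 25.5% of the exon bases of Psmd9, 12.5% of Psmb5 and 11.8% of Psmb7.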

How the data were processed

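RNA of 4 mouse tumours was sequenced from polyA libraries made with a TruSeq RNA kit on a HiSeq2500, per the labels' protocols. The deposited values are raw read counts for each gene. The submitters' processing notes name STAR, featureCounts and the build mm10, without versions, and the strand setting is not given in the sources. The genes follow GENCODE vM8, and symbols matched 46451 of 46946 identifiers. The columns were used as 4 tumours of 1 group with no replicate number. Nothing says that they differ by more than being separate tumours, so p-values measure the spread between these samples.

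Counts were filtered with edgeR 4.0.16 (R 4.3.3, filterByExpr), scaled with TMM (factors 0.971, 1.01, 0.988 and 1.03) and expressed as CPM and, with the table's exon length, as RPKM. Deviations used log2 CPM with a prior count of 2. Variation between tumours was tested in edgeR by fitting 1 mean per gene at the trended dispersion and comparing the residual deviance with chi-square (3 degrees of freedom), adjusted by Benjamini-Hochberg over 14266 genes and tested on simulated data. DESeq2 1.42.0 was an alternative. Copies were found with blastn 2.17.0 against GENCODE vM21 transcripts, which also gave the principal transcript lengths. With 0 counts, up to 3 are allowed, or 0.122 to 0.134 CPM, which covers counting error only.

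The members and lists were chosen with earlier results of these data known. Values in every tumour are given for pair members, the highest and lowest member of each class by mean RPKM, the 3 largest and 3 smallest spans in CPM, undetected members, and Psmb8, Psmb9, Pomp, Adrm1, Nfe2l1 and Nfe2l2. Psmc4, Psmc6 and Psmd6 were added after their values were seen. Alternatives covered scaling, filter, pseudocount, length, members and leaving out each tumour. Those on transcript length, copies, chromosome 14 and Lyz2 were chosen after seeing the data.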

Additional observations from a re-analysis of the deposited data

Results flagged for a closer look

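In 59 groups of 4 values, each a gene or ratio over the 4 tumours, 2 had a single tumour far from the others by Dixon's ratio, and chance flags about 1 in 20 groups. Psmc2 (chr5:21785283-21803787), an ATPase of the regulatory particle, had 177 CPM in TUN, against 126 in T14, 117 in T10 and 125 in T8 (ratio 0.842). Psme4 (chr11:30771726-30880361), which encodes the activator PA200, had 111 CPM in TUN, against 79.4, 82.7 and 81.4 (ratio 0.896). Both were high in TUN, and neither passed edgeR's goodness of fit (adjusted p = 0.999996 for each).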

How the results depend on the processing

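No proteasome gene passed the goodness of fit under any of the 10 alternatives. The median deviations kept their sign in each tumour under all 8 alternatives run. Leaving out 1 tumour moved their size, as the deviations were then centred on the tumours kept. That of T14 ran from -0.23 without T10 to -0.057 without TUN, that of T10 from -0.30 to -0.17, that of T8 from 0.0501 without T10 to 0.22 without TUN, and that of TUN from 0.20 to 0.32. T8 and TUN were the 2 highest for 35 of 44 genes with library totals and 37 of 44 with DESeq2's size factors. Other scalings moved the median of all genes by -0.04 to 0.05 log2 units.

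Core minus regulatory was -0.36 in CPM without length correction and -0.59 over all members with a count, and it reversed to 0.069 with the length of 1 principal transcript, 0.31 without members with near-identical copies and 0.033 without members on chromosome 14 beyond 40 Mb. Core minus assembly was 2.11 in CPM, 1.27 over all members with a count, 2.30 with transcript length and 2.17 without members with copies. Regulatory minus assembly was 2.47 in CPM, 2.08 as a mean over members and 2.23 with transcript length. Leaving out each tumour in turn gave -0.21 to -0.13, 1.58 to 1.74 and 1.79 to 1.90 for these differences. Of the 4 members on chromosome 14 beyond 40 Mb, 2 were lowest in TUN with DESeq2's size factors and 2 with library totals. The cause was not tested where the construction of the alternative does not show it. Alpha minus beta was -0.29 as a mean over members, 0.088 over all members with a count, -0.73 with transcript length, -0.64 without members with copies and -0.636 without members on chromosome 14 beyond 40 Mb. ATPase minus non-ATPase was 0.14 in CPM, 0.57 as a mean, 0.039 with transcript length, 0.78 without members with copies and 0.82 without those on chromosome 14. Leaving out each tumour gave -0.18 to -0.057 and 0.86 to 0.92 for these. The 7 ratios given kept their direction under all 7 alternatives run for each.

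No paired analysis was possible because the labels give a single group and the columns carry no replicate number. Every detected member had at least 207 counts in each tumour, so depth limits the undetected Psma8 and Psmb11 first. The common biological coefficient of variation was 37.6%.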
